A study of Labrus bergylta with 77 samples.

Results

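Ballan wrasse (Labrus bergylta) larvae were sampled at stage BW2, 9 days post hatching (dph), the earliest sampling after feeding had begun, to compare larvae given plankton with larvae given the usual live prey. All pools labelled BW2 were taken, 12 of the 77 pools of the series. They came from 6 tanks, 2 pools to a tank: plankton tanks B5, B7 and B9 and control tanks B6, B8 and B10. Each pool was RNA from an unstated number of whole larvae, and all tanks were stocked at 4 dph with offspring of 1 captive broodstock. The control diet was rotifers and artemia, and the plankton diet is called zooplankton in the treatment label, which names no species. No genotype or drug treatment separates the tanks, and all 6 had the same age at BW2. Diet was given to tanks, so a tank is the replicate and the comparison is 3 against 3. Messenger RNA levels are in TPM (an abundance per length of transcript, scaled to the same sum in each pool). The read depth is unknown. The 5 pools of BW0, taken at 4 dph before any diet, are given only as a reference, because their RNA was extracted with another reagent (TRIzol in place of QIAzol) and a diet test cannot use them.

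In fish larvae the yolk is used up within days of hatching, and growth then depends on prey caught and digested. Insulin, insulin-like growth factors and amino acids keep cells dividing and building protein, cholesterol and matrix when food arrives. When it does not, IGF-binding proteins, ubiquitin ligases of muscle, autophagy genes and enzymes that make glucose from amino acids are known to be raised in vertebrates. Transcript lists for these processes, for organs of the larva and for stress and immune responses were therefore compared between the diets.

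The libraries were alike in some measures and unlike in others. Genes with at least 1 TPM numbered 16957.5, 16413 and 17110 in plankton tanks B5, B7 and B9 and 17048.5, 18380 and 17056.5 in control tanks B6, B8 and B10, means of 2 pools (exact permutation test, two-sided, p = 0.3, where 3 against 3 allows no p below 0.1). The 50 highest genes took 38.5 ± 1.44% of the TPM in plankton and 35.4 ± 1.95% in control tanks (mean ± SD, n = 3, exact permutation p = 0.2). Without the 3 pools of spaced title style these shares were 39.9 ± 1.27% and 35.8 ± 1.02%, and the tanks of the diets did not overlap (exact permutation p = 0.1, the smallest that 3 against 3 allows). Standard length was 4.3, 4.2 and 4.1 mm in plankton and 4.5, 4.2 and 4.3 mm in control tanks, with an exact permutation p of 0.5. The pools of tank B5 stood apart from each other. Pool B5 R1 had 14958 genes with at least 1 TPM, the fewest of any BW2 pool, and pool B5 R3 had 18957, the most. The 50 highest genes took 41.3% of the TPM in B5 R1, the largest share of any BW2 pool, and 32.4% in B5 R3. Pools B5 R1 and B5 R3 correlated at r = 0.865 on the log2 scale, against 0.958 to 0.970 for the pairs of the other 5 tanks. All correlations here are over genes with a mean of at least 1 TPM in the BW2 pools. Pool B5 R3 correlated better with the control pools (mean r = 0.937) than with the other plankton pools (0.905), and best with the unfed BW0 pools (0.953). Pool B5 R3 nevertheless carried the plankton levels of the genes that differed most: Bco2 read 0.40 TPM in it against 27.3 to 58.8 TPM in the 6 control pools, and IGFBP1 read 294 against 13.1 to 52.8 TPM. Its title is spaced in a style shared by 2 control pools, B8 R3 and a pool of B10, and by 4 of the 5 BW0 pools. Both BW3 pools of plankton tank B5 carry it too, and no BW3 pool of another tank does. The labels do not say what the style marks. The count of all genes, and the counts of most lists that moved without pool B5 R3, are given in both ways. The remaining list counts are those with all pools and can differ without it.

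The diets differed in many genes, and genes lower in plankton outnumbered those higher. Of 17828 genes tested, 935 were higher and 2107 lower in plankton tanks (limma on log2(TPM + 1), Benjamini-Hochberg adjusted p under 0.05), which is 5.24% and 11.8% of the genes tested and 17.1% together. The difference was at least 2-fold in 293 of the higher and 869 of the lower genes. The 3 tanks of each diet did not overlap in 6443 genes, 36.1% of those tested. The median difference of all genes tested was -0.14 on the log2 scale, and every list median below is to be read against it. After division by median-of-ratios size factors that median was -0.04, and 1831 genes were called higher and 2489 lower. Among the called genes, the 6 plankton pools lay wholly above the 6 control pools in 558 of the 935 and wholly below them in 612 of the 2107. Among the 190 named genes that were called, tank means of the diets overlapped in 8, and each such overlap is stated for the genes described below. Pool B5 R3 lay below every control pool in 671 of the 2107 genes called lower, whereas each of the other 5 plankton pools did so in 1816 to 2065. Among the 935 called higher it lay above every control pool in 768, and the other plankton pools did so in 790 to 912. The count rested on single libraries. Without pool B5 R3, 917 genes were called higher and 3288 lower, and without tank B10, or without pool B5 R1, only 2 genes were called (0.0112% of those tested without B5 R1), both lower in plankton. Of the genes on the lists below 470 were called, and 2 without pool B5 R1 or tank B10. Without tanks B7, B8 and B9 in turn, 1295, 1595 and 723 genes were called. In each of these settings every gene called in the comparison of 6 tanks and still tested kept its direction. These settings reuse the same tanks, which did not overlap between diets in 2796 of the called genes, so this was largely fixed beforehand.

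**Figure D1:**
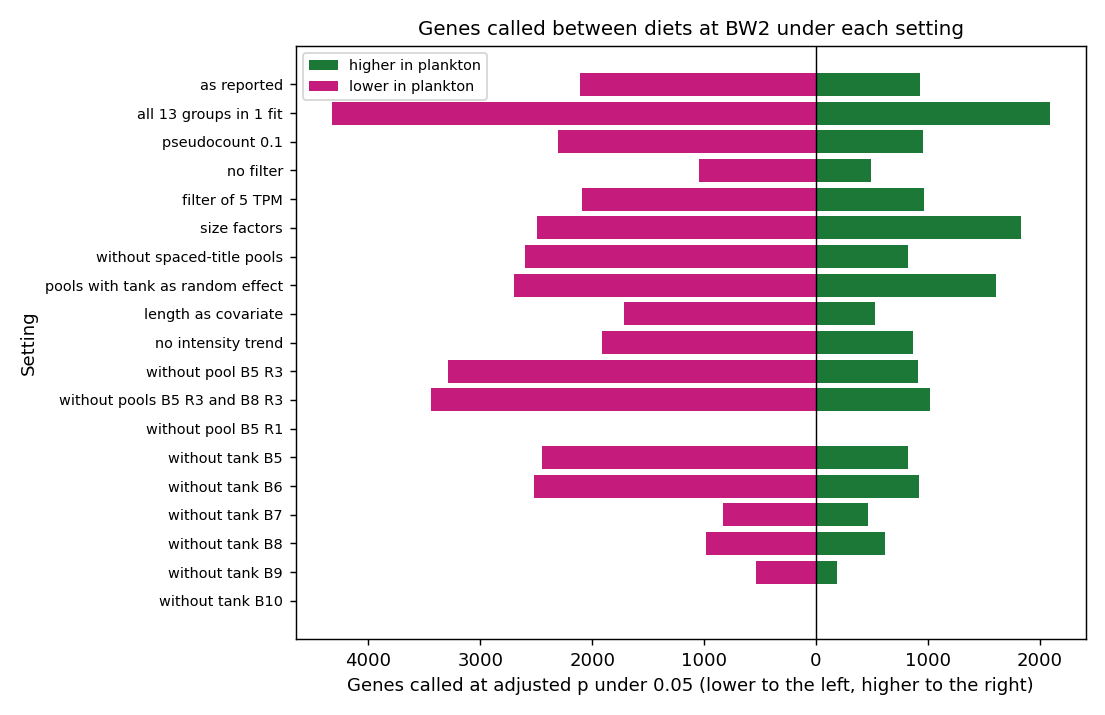
Number of genes called lower (left) and higher (right) in plankton at BW2, as reported and under each other setting of the fit. The bars vanish without pool B5 R1 and without tank B10, where 2 genes were called, and are longest when all 13 groups of the series share 1 fit, where 2090 genes were called higher and 4330 lower.

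**Figure D2:**
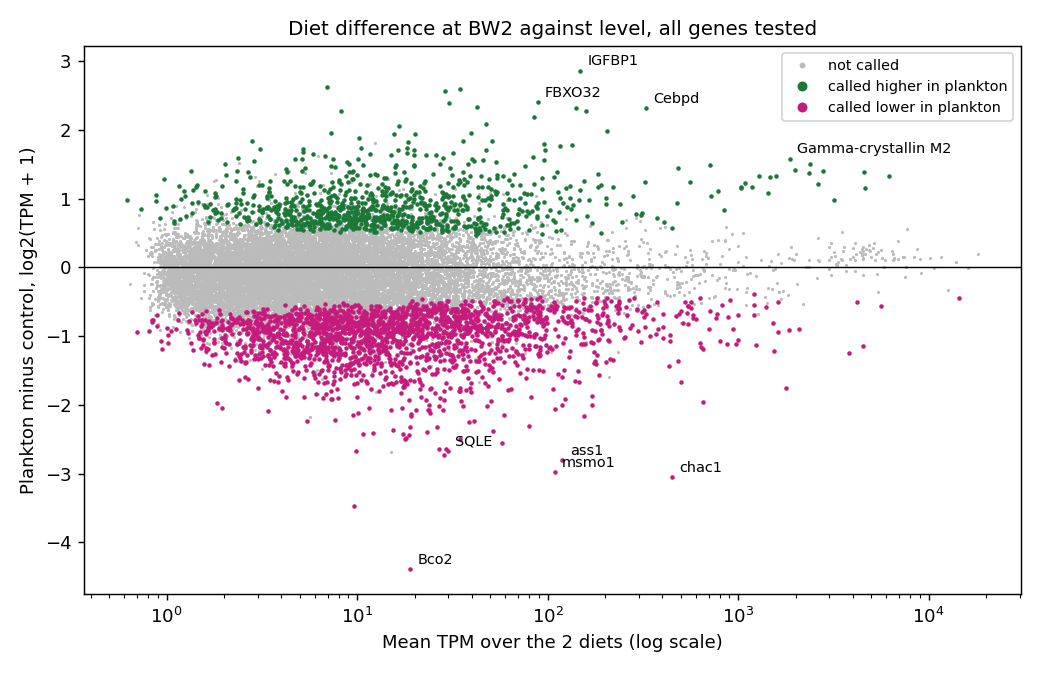
Plankton minus control difference of each gene tested at BW2, on the log2(TPM + 1) scale, against its mean TPM over the 2 diets on a log axis. Coloured points are the 935 genes called higher and the 2107 called lower in plankton. Bco2 lies lowest and IGFBP1 highest among the called genes, and the green points at the right, Gamma-crystallin M2 among them, are abundant genes called higher.

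Genes of fasting and muscle wasting were higher in plankton tanks. Of 37 list members tested, 19 were higher and 2 lower, against 5.24% and 11.8% of all genes, and their median difference was 0.97. The largest difference in this direction among named genes was that of IGFBP1 (LABE_00004774), a binding protein that holds IGFs in the circulation. It read 244, 155 and 386 TPM in plankton tanks B5, B7 and B9 and 47.8, 32.4 and 26.3 TPM in control tanks B6, B8 and B10, the order kept for all tank values. The tanks did not overlap, nor did the pools, and the difference was 2.86 ± 0.32 (log2, ± SE, limma adjusted p = 0.00592). A further copy named IGFBP1 (LABE_00001954) read 152, 19.7 and 51.9 TPM in plankton and 32.4, 26.6 and 16.6 TPM in control tanks. Its groups overlapped, and its difference of 1.08 ± 0.54 did not pass (adjusted p = 0.184).

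FBXO32 (atrogin-1), a ubiquitin ligase that marks muscle proteins for breakdown, read 130.2, 139.9 and 174 TPM in plankton and 44.8, 22.8 and 20.9 TPM in control tanks. All plankton tanks lay above all control tanks, by 2.40 ± 0.29 (adjusted p = 0.00656). The unfed BW0 pools spanned 105 to 204 TPM, which takes in the level of each plankton tank. The gene named klhl38 (LABE_00001609), a kelch-like protein, read 46.0, 47.9 and 53.0 and 15.2, 5.03 and 5.44 TPM, again without overlap (2.57 ± 0.35, adjusted p = 0.00734). The identifiers of FBXO32 and klhl38 are consecutive, and in RefSeq's annotation of assembly fLabBer1.1 fbxo32 and klhl38b are neighbours with no annotated gene between them. TRIM63 (MuRF1), the other classical ubiquitin ligase of wasting muscle, read 179, 144 and 229 and 84.4, 77.4 and 70.4 TPM (1.19 ± 0.18, adjusted p = 0.00864).

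Further members of the list were higher, though not in every copy. PDK2 (LABE_00036697), a kinase that shuts off pyruvate dehydrogenase, read 48.8, 47.5 and 57.7 TPM in plankton and 15.7, 6.39 and 6.33 TPM in control tanks (2.40 ± 0.30, adjusted p = 0.00705). A second copy, LABE_00047087, differed by 1.17 ± 0.14 (adjusted p = 0.00683), and another, LABE_00043661, read 17.2 ± 0.784 and 15.8 ± 1.24 TPM (mean ± SD, n = 3, as for all such values) with an adjusted p of 0.611. Sds, serine dehydratase of liver and a member of the amino acid breakdown list, read 187, 198 and 316 and 72.3, 32.8 and 37.2 TPM. The lowest plankton tank was above the highest control tank, and the difference was 2.31 ± 0.31 (adjusted p = 0.00716). Cebpd, a transcription factor of catabolic and acute responses, read 416, 469 and 746 and 166, 88.1 and 85.2 TPM (2.31 ± 0.29, adjusted p = 0.00716). The transcript ddit4 (LABE_00047372), an inhibitor of the growth kinase complex mTORC1, differed by 1.99 ± 0.23 (adjusted p = 0.00634). Its other copy (LABE_00010666) went the opposite way, 6.61, 6.58 and 7.32 TPM in plankton and 10.3, 15.8 and 12.8 TPM in control tanks (-0.82 ± 0.18, adjusted p = 0.0207). Klf9, a transcription factor induced by glucocorticoids, showed the same split: LABE_00005176 was higher (1.67 ± 0.31, adjusted p = 0.0128) and LABE_00004012 lower (-1.07 ± 0.27, adjusted p = 0.0305). Without pool B5 R3 the list gave 13 members higher and 2 lower.

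**Figure D3:**
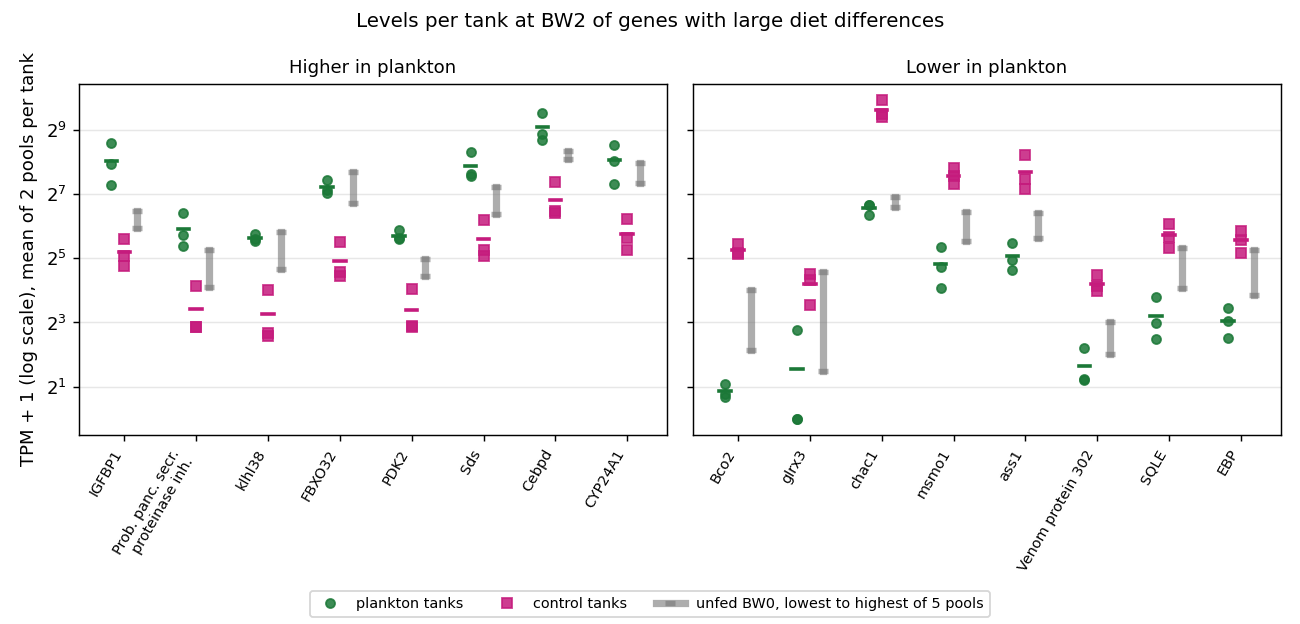
TPM + 1 on a log axis, in each tank (mean of 2 pools), of 8 named genes with large differences in each direction, among genes of at least 5 TPM whose tanks did not overlap. Circles are plankton tanks, squares control tanks, short lines the means of 3 tanks and grey bars the range of the 5 unfed BW0 pools. IGFBP1 in plankton lies above the BW0 range and in control tanks below it, whereas for chac1 the plankton tanks lie near the BW0 range and the control tanks far above it.

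Of 16 members of the growth hormone and IGF list tested, 6 were higher and 2 lower in plankton tanks (median 0.12, which was -0.02 without pool B5 R3). The higher ones were GHR, INSR, SOCS2, IGFBP6 and the pituitary hormones gh and prl. GHR (LABE_00020448), the growth hormone receptor, read 26.6, 29.9 and 32.2 TPM in plankton and 14.1, 8.42 and 7.81 TPM in control tanks. Its groups were well apart (1.49 ± 0.22, adjusted p = 0.00837). INSR (LABE_00057938), the insulin receptor, differed by 0.89 ± 0.19 (adjusted p = 0.0181) and SOCS2, a feedback inhibitor of growth hormone signalling, by 0.98 ± 0.16 (adjusted p = 0.0102). Other copies named GHR, INSR, IGFBP6 or prl were not called. IGFBP6 read 3.48 ± 0.901 TPM in plankton and 0.559 ± 0.382 TPM in control tanks (1.5 ± 0.24, adjusted p = 0.0101). The growth hormone gene gh read 28.6, 39.7 and 70.1 TPM in plankton and 16.5, 10.8 and 17.9 TPM in control tanks, without overlap (1.45 ± 0.32, adjusted p = 0.0201), and prl, prolactin, differed by 0.84 ± 0.23 (adjusted p = 0.039), a pair named after its values were seen. The lower members were Igfals and igfbp2a. Igfals, which stabilises IGF in blood, read 1.47 ± 0.900 and 4.92 ± 0.542 TPM (-1.29 ± 0.26, adjusted p = 0.0148), and igfbp2a differed by -0.69 ± 0.18 (adjusted p = 0.0312). The transcript igf1 itself was too low to be tested, 0.675, 0.145 and 0.136 TPM in plankton and 0.461, 0.865 and 0.319 TPM in control tanks. Neuropeptides called higher were AGRP and pomc, both counted in the neuronal list. AGRP (LABE_00061239), a hypothalamic peptide that stimulates feeding, read 16.1, 24.1 and 34.0 TPM in plankton and 12, 3.05 and 4.16 TPM in control tanks (1.93 ± 0.41, adjusted p = 0.0177). A transcript named pomc (LABE_00074734), the precursor of melanocortins and corticotropin, read 18.2, 28.6 and 35.4 and 11.5, 8.69 and 12.6 TPM (1.11 ± 0.25, adjusted p = 0.0217). For both peptides the lowest plankton tank was B5 and stayed above the control tanks, but single pools overlapped. AGRP read 14.1 TPM in pool B5 R3 and 15.8 TPM in control pool B6 R1. The level of pomc was 9.53 TPM in pool B7 R2, and its control pools reached 17.1 TPM.

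Genes of the amino acid stress response ran the other way. Of 41 list members tested, 18 were lower and 3 higher in plankton tanks (median -0.61). This list holds targets of ATF4, a transcription factor that raises amino acid synthesis, transport and tRNA charging. The gene chac1 (LABE_00013226), an enzyme that degrades glutathione, read 101, 81.2 and 101 TPM in plankton and 679.6, 993 and 729.8 TPM in control tanks. The highest plankton tank was far below the lowest control tank, and the difference was -3.06 ± 0.17 (adjusted p = 0.000205). In the unfed BW0 pools chac1 spanned 96.0 to 119 TPM. A second copy (LABE_00009011) was higher in plankton, 23.4, 30.1 and 38.0 against 7.29, 13.7 and 6.92 TPM (1.64 ± 0.27, adjusted p = 0.0102).

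Charging and synthesis enzymes followed the abundant chac1 copy. GARS (LABE_00003378), which charges tRNA with glycine, read 6.24, 3.86 and 4.33 TPM in plankton and 23.6, 41.4 and 29.2 TPM in control tanks (-2.48 ± 0.23, adjusted p = 0.00342), and its copy LABE_00084860 differed by -2.10 ± 0.24 (adjusted p = 0.00592). Aldh18a1, which opens proline synthesis, read 3.26, 2.46 and 2.29 and 14.1, 26.7 and 15.9 TPM (-2.42 ± 0.24, adjusted p = 0.00347). ASNS, asparagine synthetase, read 4.49, 1.27 and 2.06 and 5.45, 16.3 and 5.93 TPM. Its values varied more within each diet, with control tank B8 far above the rest, and the difference was -1.57 ± 0.35 (adjusted p = 0.0208). The factor itself was divided: of 3 copies, LABE_00090962 was lower (-0.56 ± 0.16, adjusted p = 0.0475), LABE_00049770 read 61.9 ± 11.1 and 90.7 ± 28.1 TPM (adjusted p = 0.152) and LABE_00002979 read 283 ± 17.9 and 229 ± 23.1 TPM (adjusted p = 0.144). SLC3A2, a subunit of amino acid transporters, was higher in plankton, 20, 28.8 and 31.8 against 12, 11.3 and 11.8 TPM (1.13 ± 0.20, adjusted p = 0.011). Without pool B5 R3, 22 members were lower and 3 higher.

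The list of urea cycle and amino acid breakdown genes was called in both directions. Of 37 members tested, 8 were lower and 4 higher (median -0.27), and the counts were 14 and 2 without pool B5 R3. The gene ass1, argininosuccinate synthase, read 43.6, 24.0 and 30.1 TPM in plankton and 141, 301 and 177 TPM in control tanks (-2.81 ± 0.27, adjusted p = 0.00342). OTC, ornithine transcarbamylase, read 22.3, 16.9 and 15.5 and 31.7, 51.2 and 42.8 TPM (-1.17 ± 0.20, adjusted p = 0.0111), and NAGS, which makes the activator of the cycle, differed by -1.24 ± 0.22 (adjusted p = 0.0111). Odc1, the enzyme that opens polyamine synthesis, was also lower, 40.4, 31.9 and 34.9 against 68.8, 109.8 and 88.2 TPM (-1.29 ± 0.19, adjusted p = 0.00837). Sds, described above, went the opposite way.

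Genes of cholesterol synthesis were lower in plankton tanks at early and late steps. Of 36 list members tested, 23 were lower and 1 higher, with a median difference of -1.10. The pathway turns acetyl-CoA into mevalonate, squalene and sterols, and its genes are known to be switched on together by SREBP factors when sterols are scarce. HMGCS1, an early enzyme, read 36.4, 17.6 and 9.20 TPM in plankton and 62.8, 135 and 84.9 TPM in control tanks (-2.56 ± 0.30, adjusted p = 0.00656).

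The later steps repeated the pattern. SQLE, which epoxidises squalene, read 13, 6.83 and 4.65 TPM in plankton and 39.4, 66.7 and 49.3 TPM in control tanks (-2.67 ± 0.28, adjusted p = 0.00418). Lss, which closes the sterol rings, differed by -2.50 ± 0.25 (adjusted p = 0.00418). The gene msmo1, a sterol demethylase, read 40.2, 25.6 and 15.9 and 158, 224 and 189 TPM (-2.98 ± 0.23, adjusted p = 0.00221). In none of these did a plankton tank reach a control tank. Nsdhl (-2.40 ± 0.23, adjusted p = 0.00342), EBP (-2.64 ± 0.24, adjusted p = 0.00342) and dhcr7, the enzyme of the last step (-2.17 ± 0.17, adjusted p = 0.00229), act near the end of the route. In every one of these genes tank B5 was the highest plankton tank. In pool B5 R3 HMGCS1 read 68.8 TPM and in pool B5 R1 3.90 TPM, and the control pools spanned 59.2 to 167 TPM. The member called higher was insig1, which holds SREBP back in the endoplasmic reticulum: it read 61.8, 34.5 and 27.6 TPM in plankton and 20.6, 21.3 and 13.6 TPM in control tanks (1.03 ± 0.28, adjusted p = 0.0368). SOAT2, which esterifies cholesterol for storage, read 16.7, 7.91 and 11.9 and 2.76, 2.33 and 1.89 TPM (1.96 ± 0.26, adjusted p = 0.00716). The list gave 24 lower and 1 higher without pool B5 R3.

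Carotenoid and retinoid handling held the largest difference of all named genes. Bco2 (LABE_00037806), an enzyme that cleaves carotenoids, the pigments animals take up with food, read 0.703, 1.11 and 0.585 TPM in plankton tanks and 34.9, 43.0 and 33.9 TPM in control tanks. Plankton pools spanned 0.250 to 1.20 TPM and control pools 27.3 to 58.8 TPM, far apart, and the difference was -4.39 ± 0.18 (adjusted p = 2.22e-05). The unfed BW0 pools lay between them, 3.42 to 15.2 TPM. Of the other copies named Bco2, LABE_00048991 was lower, 15.5, 9.00 and 5.52 against 17.4, 27.6 and 28.4 TPM (-1.41 ± 0.26, adjusted p = 0.0129). The remaining copies did not pass: LABE_00040126 read 41.8 ± 4.74 and 38.1 ± 1.12 TPM (adjusted p = 0.6) and LABE_00076063 read 8.65 ± 1.13 and 9.58 ± 4.00 TPM (adjusted p = 0.86).

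In the list as a whole, 10 of 55 members tested were lower and 2 higher (median -0.31), and the counts were 13 and 2 without pool B5 R3. The gene cyp26a1, which degrades retinoic acid, read 1.54, 1.51 and 1.98 TPM in plankton and 9.39, 8.31 and 8.85 TPM in control tanks (-1.88 ± 0.17, adjusted p = 0.00342). Retinoic acid itself is known to induce it. The retinoic acid carrier crabp2 read 19.6, 17.5 and 15.2 and 40.3, 53.7 and 50.4 TPM (-1.45 ± 0.18, adjusted p = 0.00683), and TTR, a plasma carrier of thyroid hormone, read 5.93, 1.51 and 1.36 and 13.5, 11.3 and 10.7 TPM (-1.91 ± 0.33, adjusted p = 0.0111). The enzyme gene retsat, which saturates retinol, was higher in plankton, 62.1, 42.8 and 20.4 against 11.9, 12.3 and 12.9 TPM (1.5 ± 0.28, adjusted p = 0.0135), as was RDH13, a retinol dehydrogenase (0.70 ± 0.17, adjusted p = 0.0249). The pigment list, by contrast, gave 1 called member of 35, gchfr (1.17 ± 0.18, adjusted p = 0.00937), a regulator of pteridine synthesis. Without pool B5 R3 that list gave 1 higher and 3 lower.

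Genes of the apolipoprotein and lipid transport list, which act in gut, liver, plasma and brain, were more often called lower than higher. Of 47 members tested, 13 were lower and 3 higher (median -0.53), and the counts were 16 and 3 without pool B5 R3. FABP2, the fatty acid carrier of enterocytes, read 348, 344 and 173 TPM in plankton and 864, 1106 and 1108 TPM in control tanks (-1.96 ± 0.24, adjusted p = 0.00656). Apolipoprotein E carries lipid in plasma, and 4 of its 5 tested copies named apoeb were called lower. The copy LABE_00047834 read 121, 71.2 and 42.9 and 204, 317 and 274 TPM (-2.0 ± 0.25, adjusted p = 0.00716), and LABE_00076031 differed by -1.94 ± 0.25 (adjusted p = 0.00716). APOA4 (LABE_00076033), an apolipoprotein of fat absorption, read 315, 253 and 160.1 and 558, 692 and 624.8 TPM (-1.44 ± 0.22, adjusted p = 0.00864). The other 5 copies of APOA4 and the 1 copy of APOA1 did not pass, with adjusted p from 0.108 to 0.995. Fabp6 (LABE_00051334), a bile acid carrier, read 503, 169 and 230.0 TPM in plankton and 487, 736 and 879 TPM in control tanks, and here tank B5 overlapped the controls. The fit averages log values, and by these it was called (-1.67 ± 0.19, adjusted p = 0.00641). Such overlap of tank means was present in 246 of the 3042 called genes. PLTP, a phospholipid transfer protein, was higher in plankton, 56.2, 64.0 and 99.7 against 28.8, 17.0 and 18.7 TPM (1.70 ± 0.26, adjusted p = 0.00916). Apod, a small lipid carrier, was divided between copies: LABE_00083710 was higher (1.12 ± 0.20, adjusted p = 0.0111), and LABE_00038458 lower (-2.43 ± 0.56, adjusted p = 0.0223).

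Fatty acid oxidation genes were more often called lower than higher, and synthesis genes were called near the background. Of 37 members tested for oxidation, 11 were lower and 2 higher (median -0.38), and the counts were 18 and 1 without pool B5 R3. Among the lower were HADHA (-1.0 ± 0.22, adjusted p = 0.0198) and Acaa2 (-1.07 ± 0.21, adjusted p = 0.0151), enzymes of beta-oxidation. Ucp2 (LABE_00009211), an uncoupling protein, was higher (1.03 ± 0.20, adjusted p = 0.0149). The receptor gene ppara (LABE_00027237), the fasting regulator of this pathway, was higher, 15.4, 14.4 and 22.1 TPM in plankton against 7.51, 5.13 and 5.58 TPM in control tanks (1.34 ± 0.20, adjusted p = 0.00864). No other copy named PPARA or Ucp2 was called higher. For synthesis, 4 of 36 were lower and 3 higher (median -0.13, which turned to 0.005 with size factors), and the counts were 6 and 1 without pool B5 R3. Acly, which supplies acetyl-CoA, was lower (-1.11 ± 0.28, adjusted p = 0.0287), as was Acsl5, which activates fatty acids (-0.71 ± 0.18, adjusted p = 0.0324), and both Lpin1 copies were higher (1.21 ± 0.20, adjusted p = 0.0104, and 1.17 ± 0.23, adjusted p = 0.0148). Enzymes of long-chain polyunsaturated fatty acid synthesis showed small differences: fads2 read 4.34 ± 1.55 and 5.07 ± 1.22 TPM (adjusted p = 0.573), and elovl5 read 3.51 ± 0.534 and 3.31 ± 0.719 TPM (adjusted p = 0.829).

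In glucose metabolism the calls lay near the 5.24% and 11.8% of all genes, and the copies of the enzymes of glucose release differed in direction. Of 42 members tested, 7 were lower and 3 higher (median -0.25), and the counts were 12 and 3 without pool B5 R3. PCK1 (LABE_00058022), which opens glucose production from amino acids and lactate, read 218, 136 and 98.7 TPM in plankton and 55.3, 32.5 and 39.9 TPM in control tanks (1.70 ± 0.27, adjusted p = 0.00956). G6PC, which releases glucose into blood, was also higher (1.03 ± 0.21, adjusted p = 0.0168). The second copies, PCK1 LABE_00025597 (33.7, 15.3 and 14.1 and 28.4, 44.7 and 34.0 TPM, adjusted p = 0.054) and g6pc LABE_00038050 (6.96, 0.200 and 0.144 and 2.88, 4.67 and 2.17 TPM, adjusted p = 0.129), did not pass. Both were called lower without pool B5 R3 (adjusted p = 0.00788 and 0.00774). The muscle enzymes of glycolysis PGAM2, in both copies (-1.16 ± 0.17, adjusted p = 0.00837, and -1.06 ± 0.20, adjusted p = 0.014), and PFKM (-1.0 ± 0.19, adjusted p = 0.0135) were lower.

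Genes of cell division were the most uniform group. Of 69 members of the cell cycle and DNA replication list tested, 60 were lower in plankton tanks and 0 higher, and the median difference was -1.32, against -0.14 for all genes. The summed level of the list was 757, 535 and 389.8 TPM in plankton and 1286, 1852 and 1603 TPM in control tanks. In whole larvae fewer dividing cells and less RNA per dividing cell cannot be told apart, a limit that holds for every organ and cell list here. The replication helicase subunits mcm5 (13.4, 8.93 and 8.40 TPM in plankton, 26.6, 37.6 and 33.7 TPM in control tanks, -1.66 ± 0.21, adjusted p = 0.00716) and MCM2 (-1.65 ± 0.23, adjusted p = 0.00744) were lower. So were rrm1, which makes deoxynucleotides (-1.68 ± 0.21, adjusted p = 0.00683), and CDC6, which licenses replication origins (-1.59 ± 0.21, adjusted p = 0.00716). CDC20 (LABE_00012565), which triggers the exit from mitosis, read 10.2, 6.61 and 4.78 and 19.0, 34.6 and 26.5 TPM (-1.82 ± 0.27, adjusted p = 0.00837). The unfed BW0 pools spanned 16.5 to 21.0 TPM for CDC20, above each plankton tank and near control tank B6. Without pool B5 R3, 62 members were lower.

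Ribosome biogenesis and respiratory chain genes were called lower in numbers that moved with the setting. Of 50 ribosome biogenesis genes, 11 were lower and 0 higher (median -0.35), and the counts were 19 and 0 without pool B5 R3. The lower ones included nhp2 (-0.82 ± 0.15, adjusted p = 0.0134) and DKC1 (-0.62 ± 0.13, adjusted p = 0.0186), which modify ribosomal RNA. Of 108 respiratory chain genes, 14 were lower and 0 higher (median -0.22), close to the 11.8% of all genes, and with size factors 7 were lower and 0 higher. Other settings raised the lower count, to 21 without pool B5 R3, 33 with pools as units and tank as a random effect, and 44 with all 13 groups in 1 fit. NDUFC2, a subunit of complex I, read 383, 378 and 375 TPM in plankton and 574, 613 and 617 TPM in control tanks, a narrow difference with narrow groups (-0.68 ± 0.12, adjusted p = 0.0106). NDUFS8, of the same complex, differed by -1.20 ± 0.21 (adjusted p = 0.0111). Both copies of Atp5g3, which forms the rotor of ATP synthase, were lower (-0.89 ± 0.17, adjusted p = 0.0128, and -0.74 ± 0.14, adjusted p = 0.0134).

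**Figure D4:**
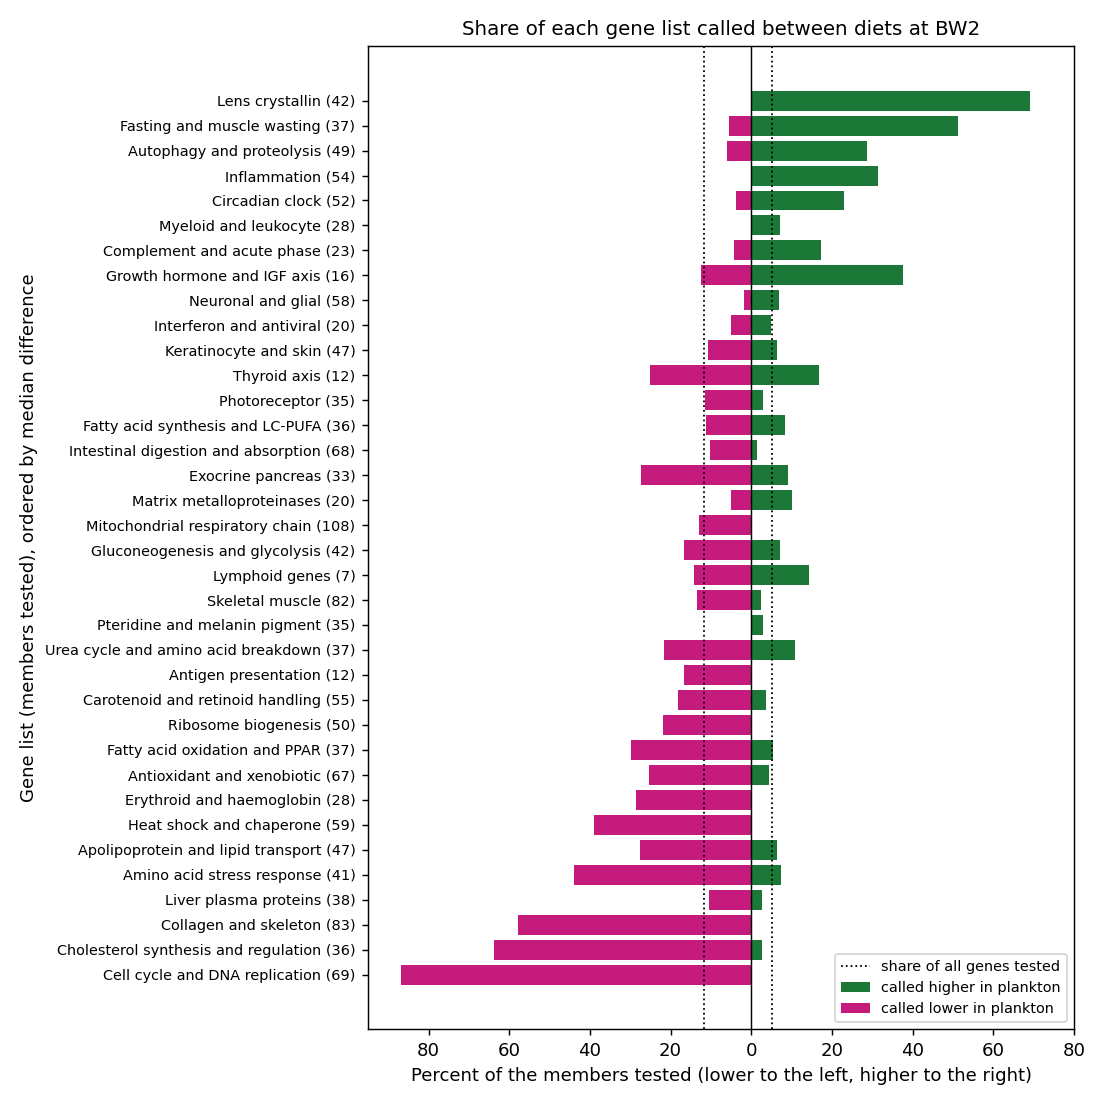
For each gene list, the percent of its members tested that were called higher (right) or lower (left) in plankton at BW2, with the number tested in brackets and the lists ordered by median difference. Dotted lines mark the 5.24% and 11.8% of all genes called higher and lower. The cell cycle, cholesterol and collagen lists reach farthest to the left, the lens crystallin and fasting lists farthest to the right.

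Cartilage and bone matrix genes were lower in plankton tanks. Of 83 members tested, 48 were lower and 0 higher (median -0.78), and the counts were 55 and 0 without pool B5 R3. With all pools, the summed level of the list was 2989.8, 2396 and 1909.9 TPM in plankton and 4501, 5406 and 4278 TPM in control tanks. COL2A1, the main collagen of cartilage, read 72.3, 65.1 and 51.1 and 139, 176 and 130.3 TPM (-1.19 ± 0.20, adjusted p = 0.0102). Collagen IX, which coats those fibrils, was lower in Col9a1 (-1.53 ± 0.21, adjusted p = 0.00766) and COL9A2 (-1.5 ± 0.22, adjusted p = 0.00855). Of the collagen I chains, col1a2 LABE_00012020 read 162, 131 and 79.4 and 278, 341 and 278 TPM (-1.33 ± 0.24, adjusted p = 0.0114). The copies LABE_00025931 (-1.78 ± 0.35, adjusted p = 0.0145) and LABE_00016965 (-0.91 ± 0.20, adjusted p = 0.0192) were called as well, and LABE_00020559 read 2.88 ± 0.468 and 4.79 ± 0.831 TPM (adjusted p = 0.0641). Serpinh1 LABE_00033740, the chaperone of collagen folding, differed by -1.51 ± 0.25 (adjusted p = 0.0102). In each of the 7 genes called here the highest BW0 pool was above the control mean, as for COL2A1 with 159 to 323 TPM.

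Proteases that cut matrix were divided. MMP13 LABE_00011342, a collagenase, was higher, 20.3, 28.8 and 28.4 TPM in plankton against 13.8, 7.28 and 9.33 TPM in control tanks (1.28 ± 0.24, adjusted p = 0.0124), as was MMP19 (1.01 ± 0.26, adjusted p = 0.0319). MMP2, a gelatinase, was lower (-0.81 ± 0.20, adjusted p = 0.029). In all, 2 of 20 were higher and 1 lower, and the counts were 2 and 3 without pool B5 R3.

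Skeletal muscle markers, of which 11 of 82 tested were lower and 2 higher (median -0.26), stayed near the background, although without pool B5 R3 18 were lower and 3 higher. The summed muscle level was 45624, 43082 and 36659 TPM in plankton and 51139.9, 52013 and 53493 TPM in control tanks, without overlap. Among the called members, myod1, a determination factor of muscle cells, read 6.87, 8.92 and 5.41 and 17.6, 12.1 and 15.6 TPM (-1.05 ± 0.23, adjusted p = 0.0186). The myosin chaperone unc45b was also lower (-1.09 ± 0.21, adjusted p = 0.0143), as were Acta1, skeletal actin (-1.0 ± 0.18, adjusted p = 0.0114), and SMYD1, a muscle methyltransferase (-0.82 ± 0.16, adjusted p = 0.015). Against them, DES, a copy of the intermediate filament desmin, read 6.38 ± 1.39 and 2.14 ± 0.465 TPM (1.21 ± 0.21, adjusted p = 0.0111), and myf6, a late factor of muscle differentiation, was higher (0.86 ± 0.22, adjusted p = 0.0296).

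Lens crystallins were higher in plankton tanks and carried the largest shift in summed level of all lists. Of 42 crystallin genes tested, 29 were higher and 0 lower (median 1.13). Their TPM summed to 53888, 59829 and 47902 in plankton and 31654, 13639 and 20728 in control tanks, and to between 11393 and 38092 in the BW0 pools. Since TPM has a fixed sum, a rise in these abundant transcripts lowers the TPM of all others. With size factors 18 crystallins were called higher and 1 lower. Crystallins are the bulk protein of lens fibre cells. Gamma-crystallin M2 (LABE_00036262) read 2989, 2951 and 2475 TPM in plankton and 1370.2, 493.1 and 922 TPM in control tanks (1.58 ± 0.31, adjusted p = 0.0145), CRYBA1 differed by 1.17 ± 0.23 (adjusted p = 0.0138) and crygna by 1.25 ± 0.24 (adjusted p = 0.0137). Among the control tanks B6 was highest and B8 lowest in each of these genes. The 2 pools of tank B5 were far apart. Gamma-crystallin M2 read 5124 TPM in B5 R1 and 855 TPM in B5 R3, and the control pools spanned 416 to 1753 TPM. In CRYBA1 and crygna pool B5 R3 also lay within the control pools. Without pool B5 R3, 30 crystallins were called higher and 1 lower.

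Photoreceptor genes gave few calls. Of 35 tested, 4 were lower and 1 higher (median -0.04, which turned to 0.04 with size factors). The lower genes were GUCA1A, grk7a, PRPH2 and GRK1. GUCA1A, a calcium sensor of phototransduction, read 10.3, 6.22 and 5.85 against 11.3, 14.8 and 12.8 TPM (-1.41 ± 0.18, adjusted p = 0.00716). Its pools varied widely, from 0 TPM in B5 R1 to 20.7 TPM in B5 R3, which was above the control pools at 8.33 to 17.1 TPM. The cone opsin kinase grk7a differed by -1.22 ± 0.24 (adjusted p = 0.0145), PRPH2 of the outer segment discs by -1.19 ± 0.26 (adjusted p = 0.0184) and GRK1 by -0.83 ± 0.24 (adjusted p = 0.0461). In grk7a, PRPH2 and GRK1 tank B5, by its pool R3, overlapped the control tanks. The summed level of the list was nevertheless higher in each plankton tank, 5924, 5817 and 7127 TPM against 4457, 4729 and 5104 TPM in control tanks. PDE6H, a subunit of the cone phosphodiesterase, was higher (84.5, 127 and 188 against 64.7, 38.1 and 56.5 TPM, 1.29 ± 0.30, adjusted p = 0.0238).

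The digestive organs gave mixed counts. Of 33 exocrine pancreas genes tested, 9 were lower and 3 higher (median -0.15), and the counts were 12 and 2 without pool B5 R3. With all pools the summed level overlapped between diets, 17581, 16816 and 17677 TPM in plankton and 21333, 16857 and 15643 TPM in control tanks. The 3 lower members with the smallest p digest fat: PLA2G1B (357, 215 and 262 TPM in plankton, 499.9, 497 and 437 TPM in control tanks, -0.90 ± 0.16, adjusted p = 0.011), CEL, the bile salt lipase (-0.96 ± 0.20, adjusted p = 0.0157), and PNLIPRP1 (-0.80 ± 0.17, adjusted p = 0.0161). Among proteases, a copy named Trypsin (LABE_00017248, 1.57 ± 0.23, adjusted p = 0.00837) and the elastase Cela2a (1.06 ± 0.27, adjusted p = 0.0306), were higher. The chymotrypsin CTRC read 44.5 ± 12.3 and 53.6 ± 2.42 TPM (adjusted p = 0.165, and 0.0278 without pool B5 R3). A gene named Probable pancreatic secretory proteinase inhibitor (LABE_00071785) read 40.8, 52.4 and 84.5 TPM in plankton and 16.7, 6.22 and 6.29 TPM in control tanks (2.60 ± 0.38, adjusted p = 0.00837).

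Markers of intestine were lower in 7 and higher in 1 of 68 (median -0.14), near or under the background of all genes, although without pool B5 R3 the counts were 19 and 2. The one higher was creb3l3b, a transcription factor of gut and liver (0.89 ± 0.18, adjusted p = 0.0153), and the copy FABP6 LABE_00040749 was lower (-0.89 ± 0.16, adjusted p = 0.0114). Liver plasma proteins had a median of -0.73, with 4 of 38 lower and 1 higher, and the counts were 13 and 1 without pool B5 R3. Named members were tf, transferrin (112, 38.7 and 49.3 and 129, 143 and 137 TPM, -1.18 ± 0.33, adjusted p = 0.0418), and FETUB (-1.40 ± 0.33, adjusted p = 0.023), with LEAP2, a liver peptide (-1.35 ± 0.26, adjusted p = 0.0145). F10, coagulation factor X, was higher (0.81 ± 0.16, adjusted p = 0.0143). Complement genes were higher in 4 of 23 and lower in 1, and the counts were 2 and 1 without pool B5 R3. With all pools C7 of the lytic complex was higher, 9.27, 3.59 and 13 against 1.78, 1.27 and 2.45 TPM (1.68 ± 0.36, adjusted p = 0.0185). C4A was also higher (1.34 ± 0.27, adjusted p = 0.0155), whereas c8b was lower (-1.34 ± 0.34, adjusted p = 0.0312).

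Erythroid genes were lower in 8 and higher in 0 of 28 (median -0.45), and the counts were 11 and 1 without pool B5 R3. ALAD, an enzyme of haem synthesis (20.7, 13.9 and 13.3 TPM in plankton, 27.5, 41.4 and 37.9 TPM in control tanks, -1.16 ± 0.20, adjusted p = 0.0111), was lower, as were RHAG, an ammonia channel of red cells (-1.48 ± 0.25, adjusted p = 0.0104), and TFRC, the receptor for iron-laden transferrin (-0.69 ± 0.17, adjusted p = 0.0251). The summed level of the list was 7685, 6067 and 7622 TPM in plankton and 7129, 5823 and 7373 TPM in control tanks, and overlapped.

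Chaperone and antioxidant genes were more often called lower than higher. Of 59 heat shock and chaperone genes tested, 23 were lower and 0 higher (median -0.51), and the counts were 28 and 0 without pool B5 R3. The mitochondrial chaperonin pair fell together in plankton, hspe1 reading 331, 296 and 238 against 570.3, 576 and 621 TPM (-1.07 ± 0.16, adjusted p = 0.00863) and HSPD1 59.2, 37.2 and 35.9 against 81.9, 122 and 106 TPM (-1.27 ± 0.22, adjusted p = 0.0107). Of 67 antioxidant and xenobiotic genes, 17 were lower and 3 higher (median -0.40), and the counts were 27 and 2 without pool B5 R3. Lower members were the glutathione transferases GSTM3 (-0.92 ± 0.17, adjusted p = 0.0114) and GSTO1 (-1.0 ± 0.20, adjusted p = 0.0152), Gpx1, a glutathione peroxidase (-0.92 ± 0.19, adjusted p = 0.0162), and Prdx4, a peroxiredoxin (-0.87 ± 0.17, adjusted p = 0.0141). CYP2J2, a cytochrome of fatty acid oxidation, was higher, 49.1, 44.6 and 64.4 TPM in plankton and 21.1, 17.6 and 18.8 TPM in control tanks (1.39 ± 0.17, adjusted p = 0.00656), as was SULT3A1, a sulfotransferase (1.53 ± 0.22, adjusted p = 0.00837).

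Immediate early and inflammatory genes were higher in plankton tanks. Of 54 inflammation genes tested, 17 were higher and 0 lower (median 0.38), and the counts were 13 and 1 without pool B5 R3. The 4 with the smallest p were not cytokines. The transcription factor gene fos read 21.4, 21.6 and 26.8 TPM in plankton and 6.11, 8.53 and 6.33 TPM in control tanks (1.63 ± 0.17, adjusted p = 0.00418), and its partner junb differed by 1.63 ± 0.21 (adjusted p = 0.00716). Both copies of GADD45B, a stress sensor of growth arrest, were higher (1.65 ± 0.18, adjusted p = 0.00543, and 1.59 ± 0.19, adjusted p = 0.00656). SOCS3 (LABE_00003548), a feedback inhibitor of cytokine receptors, read 9.77, 10.3 and 15.2 and 4.69, 2.81 and 3.32 TPM (1.45 ± 0.22, adjusted p = 0.00874). Of the CXCL8 copies, a neutrophil-attracting chemokine, LABE_00032301 read 5.39, 15.8 and 14 and 2.86, 2.23 and 4.53 TPM (1.58 ± 0.36, adjusted p = 0.0223), and LABE_00028950 read 5.18 ± 0.617 and 4.50 ± 1.25 TPM (adjusted p = 0.614). Cyld (LABE_00016145), a deubiquitinase that restrains NF-kappaB, was higher, 50.2, 78.9 and 98.7 against 31.2, 10.6 and 13.8 TPM (2.08 ± 0.38, adjusted p = 0.0121).

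Leukocyte markers gave counts near the background. Of 28 myeloid genes tested, 2 were higher and 0 lower. They were MMP13, described above and also made by cartilage, and ITGAM, an integrin of phagocytes, which read 8.33, 9.32 and 11.6 TPM in plankton and 5.36, 3.18 and 4.42 TPM in control tanks (1.0 ± 0.21, adjusted p = 0.0166), and the summed list was 206, 189.9 and 273 TPM in plankton and 160.5, 178 and 167 TPM in control tanks. These sums did not overlap, and their part in the inflammation counts was not tested. Only 7 of 37 lymphoid genes were high enough to be tested, and the copies of CCL25, a chemokine of thymus and gut, went apart (LABE_00026307 1.09 ± 0.16, adjusted p = 0.00864, and LABE_00000745 -1.07 ± 0.22, adjusted p = 0.0162). The genes rag1 and CD4, which mark developing and helper T cells, were below 0.05 TPM in each tank. Interferon genes gave 1 higher and 1 lower, IFI44L (-0.77 ± 0.22, adjusted p = 0.0441), of 20, and antigen presentation 2 lower of 12, PSME2 (-1.03 ± 0.22, adjusted p = 0.0187) and Psme1 (-0.58 ± 0.16, adjusted p = 0.0371), caps of the proteasome.

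Autophagy genes were higher in plankton tanks. Of 49 members of the autophagy and proteolysis list tested, 14 were higher and 3 lower (median 0.41). ULK1, the kinase that starts autophagy, read 7.89, 7.55 and 7.24 TPM in plankton and 3.27, 2.81 and 2.46 TPM in control tanks, both groups narrow (1.16 ± 0.17, adjusted p = 0.00837). Transcripts for proteins of the autophagosome membrane were also higher, Gabarapl2 reading 245, 253 and 297 and 141, 77.8 and 86.8 TPM (1.36 ± 0.22, adjusted p = 0.0102) and MAP1LC3C 322, 402 and 403 and 195, 174 and 194 TPM (1.04 ± 0.14, adjusted p = 0.00734). Tp53inp2, a nuclear autophagy factor, differed by 1.57 ± 0.20 (adjusted p = 0.00716), and calcoco1, an autophagy receptor, by 1.96 ± 0.28 (adjusted p = 0.00802). The protease CTSB was lower, but its plankton tanks read 43.7, 3.65 and 4.67 TPM, of which B5 lay within the control tanks at 21.4, 46.0 and 49.4 TPM (-2.08 ± 0.37, adjusted p = 0.0113). PSMA2, a subunit of the proteasome core, was lower as well (-1.11 ± 0.27, adjusted p = 0.0274), again with tank B5 inside the control range. Without pool B5 R3 the list gave 11 higher and 7 lower, and with size factors 24 and 3.

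Clock genes were higher in plankton tanks in 12 of 52 members tested and lower in 2 (median 0.28). PER2, a repressor of the clock that light and nutrients can induce, read 25.3, 19.6 and 36.8 TPM in plankton and 8.17, 4.37 and 4.77 TPM in control tanks (2.05 ± 0.27, adjusted p = 0.00716), while the unfed BW0 pools spanned 3.04 to 5.91 TPM. NR1D2 (REV-ERB beta) read 75.2, 63.3 and 104 and 31.7, 26.4 and 22.3 TPM (1.53 ± 0.20, adjusted p = 0.00734), Ciart differed by 1.72 ± 0.28 (adjusted p = 0.0102) and nfil3 LABE_00048119 by 1.93 ± 0.33 (adjusted p = 0.0104). Without pool B5 R3 the list gave 7 higher and 2 lower, and with size factors 20 and 2. The other 3 tested copies of nfil3 had differences between -0.05 and 0.07 and did not pass. The lower members were tipin (-1.05 ± 0.18, adjusted p = 0.0107) and TIMELESS (-1.02 ± 0.26, adjusted p = 0.0301), which act together at replication forks. The hour of sampling in each tank was not given in the labels, so its part in the result was not tested.

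In the thyroid list the copies of dio3, the deiodinase that inactivates thyroid hormone, were divided. The copy LABE_00033562 read 1.5, 2.17 and 2.41 TPM in plankton and 10.9, 17.4 and 11.3 TPM in control tanks (-2.23 ± 0.21, adjusted p = 0.00342), its neighbour by identifier LABE_00033563 differed by -1.20 ± 0.29 (adjusted p = 0.0247), and LABE_00013199 went the other way, 11.3, 7.28 and 7.64 against 3.87, 4.69 and 3.82 TPM (0.90 ± 0.19, adjusted p = 0.0178). In all 2 of 12 were higher and 3 lower.

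Skin and nerve markers stayed near the background. Keratinocyte genes gave 3 higher and 5 lower of 47. The gene krt13 read 292, 324 and 272 TPM in plankton and 543, 624 and 577 TPM in control tanks (-0.99 ± 0.13, adjusted p = 0.00716), krt8 was also lower (-1.34 ± 0.21, adjusted p = 0.00984), and krt18 was higher (1.01 ± 0.26, adjusted p = 0.0303). Neuronal and glial genes gave 4 higher, among them NEFL (0.71 ± 0.19, adjusted p = 0.0356) and SYT1 (0.69 ± 0.20, adjusted p = 0.0455), and 1 lower, SOX10 (-0.68 ± 0.17, adjusted p = 0.0303), of 58. With size factors 10 were higher and 3 lower, and without pool B5 R3 6 were higher and 4 lower.

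Some of the largest differences fell outside the lists. CYP24A1, which inactivates vitamin D, read 265, 161 and 371 TPM in plankton and 74.2, 48.7 and 37.3 TPM in control tanks (2.27 ± 0.32, adjusted p = 0.00793). ARRDC2, an arrestin-domain protein, read 129.99, 112 and 177 and 42.1, 27.6 and 20.7 TPM (2.18 ± 0.26, adjusted p = 0.00641). The gene glrx3, a glutaredoxin of iron-sulfur handling, was listed at 0 in 5 of the 6 plankton pools and at 11.7 TPM in pool B5 R3, and the control pools spanned 7.91 to 25.8 TPM (-3.48 ± 0.48, adjusted p = 0.00747). A gene named Venom protein 302 read 3.62, 1.34 and 1.30 and 16.5, 21.3 and 14.8 TPM (-2.67 ± 0.28, adjusted p = 0.00418). Of the 30 genes named for the largest differences, the 6 pools of each diet were apart in 25.

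Most of these differences were not called again in the same tanks at later stages. Few genes of any kind were called at those stages, except at BW4. Sampling went by length, so ages differ between diets from BW3 on: BW3 was 18 dph in plankton and 16 dph in control tanks. Plankton tank B5 is represented at BW3 only by pools of spaced title style, which no control tank has there. At BW3, 13 of 19489 genes were called (0.0667%, limma, each stage fitted alone, with 1247 at an unadjusted p under 0.05). Of the genes called at BW2, 3016 were tested at BW3 and 0 were called. At BW4, 1344 of 19281 genes were called (6.97%). Of the BW2 calls, 2994 were tested there, 509 were called and 464 of these had the same direction. The limma fits called 0 genes at BW5, 19 at BW6 and 2 at BW7, with 1602, 1490 and 1639 at an unadjusted p under 0.05.

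The change from BW2 to BW3 was tested itself, on the difference between stages in each tank. It passed in 3962 of 19841 genes (20%, adjusted p under 0.05). The difference of FBXO32 went from 2.40 ± 0.29 at BW2 to -1.87 ± 0.47 at BW3 (change 4.27 ± 0.47, adjusted p = 0.00388). At BW3 FBXO32 read 25.4 ± 26.4 TPM in plankton and 63.4 ± 10.9 TPM in control tanks, and it was not called at that stage alone. Outside the 5 genes of largest BW2 difference in each direction, for which this test was planned, TRIM63 went from 1.19 ± 0.18 to -0.62 ± 0.15 (change 1.81 ± 0.19, adjusted p = 0.00388). The division genes mcm5 (change -1.96 ± 0.20, adjusted p = 0.00388) and CDC20 (change -2.18 ± 0.29, adjusted p = 0.00388) were among these. At BW3 mcm5 read 35.4 ± 9.24 TPM in plankton and 27.8 ± 3.00 TPM in control tanks, and CDC20 read 35.5 ± 4.09 TPM in plankton and 27.4 ± 1.62 TPM in control tanks. For Sds the difference at BW3 was 1.89 ± 0.28 (adjusted p = 0.0924), and its change of 0.42 ± 0.48 did not pass (adjusted p = 0.552). Gamma-crystallin M2 read 135 ± 38.3 TPM in plankton and 213 ± 104 TPM in control tanks at BW3, and its change was 2.17 ± 4.63 (limma adjusted p = 0.763). That SE borrows from genes with a similar mean change between stages, not a similar level. The fit therefore does not settle whether the difference of this gene changed. Over all named genes, whether called at BW2 or not, 162 had a change that passed. Most were named because they were called at BW2, and the BW2 difference is part of the change. That count was thus largely set by the choice of genes and cannot be read against the 20% of all genes.

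At BW4 several of the genes lowest in plankton at BW2 were called again in the same direction. The copy of chac1 lower at BW2 read 296 ± 67.2 TPM in plankton and 1460.4 ± 172 TPM in control tanks (-2.36 ± 0.15, adjusted p = 0.00084). Bco2 read 17.0 ± 4.67 TPM in plankton and 71.1 ± 24.5 TPM in control tanks (-2.04 ± 0.29, adjusted p = 0.012), ass1 differed by -1.30 ± 0.05 (adjusted p = 0.000441) and msmo1 by -0.81 ± 0.08 (adjusted p = 0.00276). Among the genes higher at BW2, PCK1 (1.99 ± 0.32, adjusted p = 0.0187), PDK2 (1.52 ± 0.17, adjusted p = 0.0049) and FBXO32 (1.03 ± 0.16, adjusted p = 0.0173) were called higher again. TRIM63 was called in the opposite direction (-0.57 ± 0.05, adjusted p = 0.00265), and IGFBP1 read 6.58 ± 1.03 TPM in plankton and 6.79 ± 1.76 TPM in control tanks (adjusted p = 0.962).

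**Figure D5:**
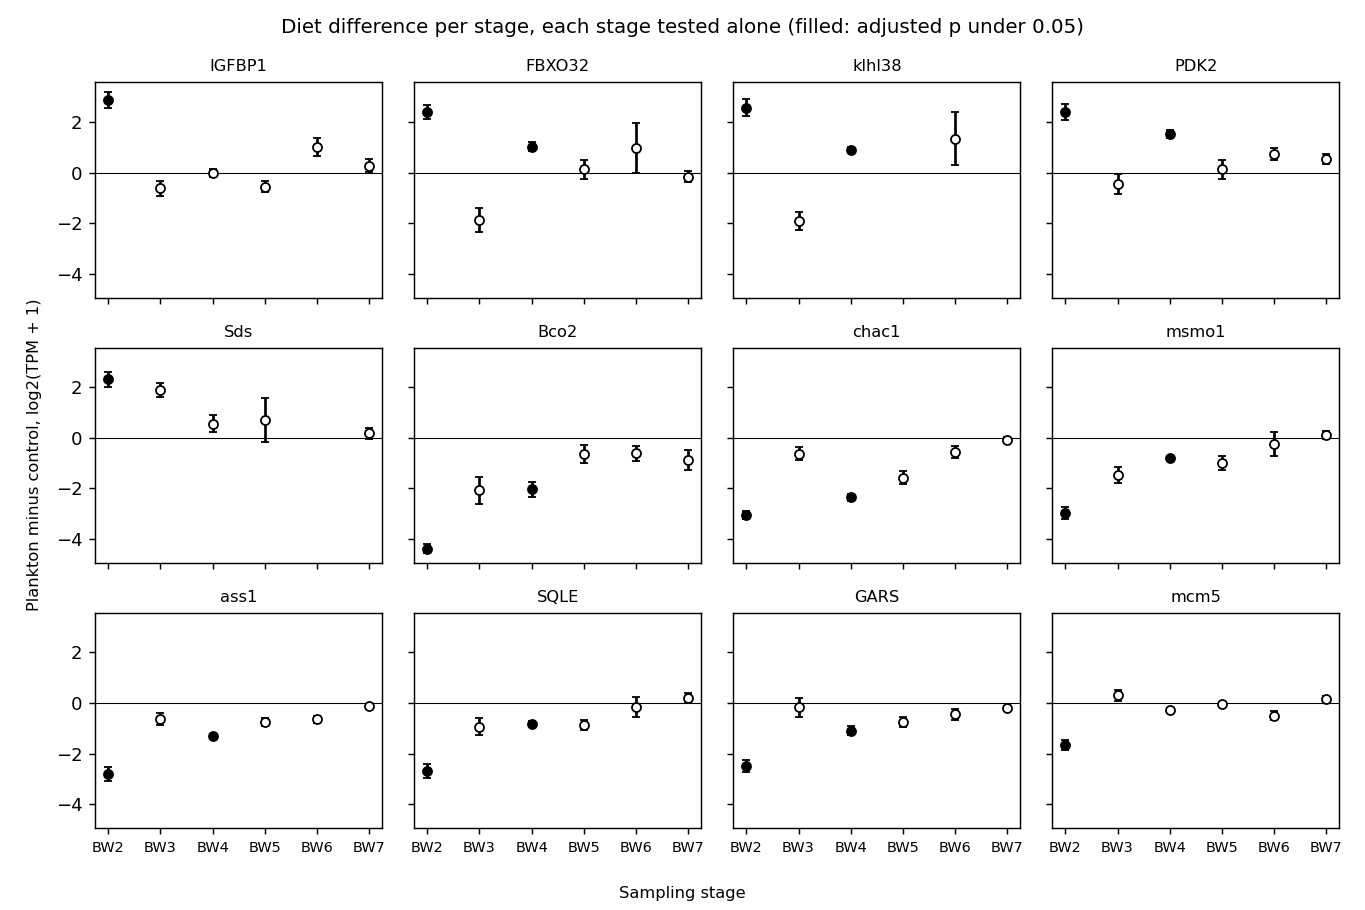
Plankton minus control difference on the log2(TPM + 1) scale, ± SE, at each sampling stage for 12 named genes, with each stage fitted alone on 3 tanks of each diet. Filled points passed an adjusted p under 0.05, open points did not, and a missing point was not tested for low level. FBXO32 and klhl38 are above 0 at BW2 and below it at BW3, whereas chac1, ass1 and Bco2 are below 0 at BW2 and again at BW4.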

How the data were processed

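The authors deposited 1 table of TPM values per gene and pool for the 77 pools of the series, and the unit is read from its columns, which each sum to 1000000, since no header names it. Salmon and edgeR are named, without versions or roles, in the submitters' processing notes, and the genome build is not given in the sources used here. The libraries were made from poly(A) RNA, per the labels' protocols. TPM keeps no read depth, so counting error is unknown and a fixed sum ties all genes together.

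The mean of log2(TPM + 1) over the 2 pools of a tank was the unit of analysis, and displayed levels are plain means of TPM. A gene entered the test if 3 or more of the 6 BW2 tanks reached 1 TPM. The test was limma 3.58.1 (R 4.3.3) with an intensity trend, and calls required a p under 0.05 after Benjamini-Hochberg adjustment. The BW2 tanks were fitted alone, because the same tanks recur at each stage and their spread was largest at BW2 among the fed stages (median residual SD 0.23 on the log2 scale against 0.11 to 0.20). The change from BW2 to BW3 was fitted on the difference within each tank. There the trend followed the mean change between stages in place of the level. The SE of a strongly changing gene thus borrows from other such genes. Tank measures were compared with an exact permutation test. The calling step was tested on simulated data. Tables and figures were made with Python 3.11.15, numpy 2.4.6, pandas 2.3.3 and matplotlib 3.10.9.

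Named genes were the 15 called genes with the largest difference in each direction (a name, at least 5 TPM in the higher diet, tanks of the diets apart), up to 4 called members of each list in its prevailing direction and up to 2 against it, and a fixed set of genes looked up whether called or not. A few genes that meet this rule are not reported here, although they stay in all counts. PER1, also looked up, matched no name in the table, and the lists omit any name that more than 20 genes carry. The comparison, the members and the lists were chosen with earlier results of these data known. The labels do not say that the tanks came from separate egg batches, so p-values measure only the spread between tanks. Where a gene has several copies, the deposited values may split reads between them. Alternatives covered the pseudocount, filter, scaling, samples in the fit, pool as unit, length as covariate, the trend and each tank left out.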

Additional observations from a re-analysis of the deposited data

Results flagged for a closer look

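Pool B5 R3 stood apart from the other 5 plankton pools in 2 library measures. It had 12545 genes with at least 5 TPM, against 8527 to 10021 in the others, and its 50 highest genes took 32.4% of the TPM, the lowest share of the plankton pools. The lowest count, 8527, was that of pool B5 R1, the pool without which almost no gene was called. Chance puts about 1 group in 20 past the limit used (Dixon's test at 95%).

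The diet difference changed between BW2 and BW3 in each of 9 genes named for large differences at BW2, by a test of the change itself (limma, Benjamini-Hochberg adjusted over all genes). The genes were chosen for a large value at BW2, and the diets were sampled at unequal ages at BW3. The change, as the difference at BW2 minus that at BW3 on the log2 scale, was 3.48 ± 0.96 for IGFBP1 (adjusted p = 0.0321) and 3.00 for the Probable pancreatic secretory proteinase inhibitor (adjusted p = 0.00388). It was 4.48 ± 0.58 for klhl38 (adjusted p = 0.00388) and 4.27 ± 0.47 for FBXO32 (adjusted p = 0.00388), both of which read lower in plankton at BW3 without passing there. It was -2.32 ± 0.48 for Bco2 (adjusted p = 0.0125), -3.35 ± 0.47 for glrx3 (adjusted p = 0.00443), -2.43 ± 0.35 for chac1 (adjusted p = 0.00476), -1.51 ± 0.25 for msmo1 (adjusted p = 0.00639) and -2.18 for ass1 (adjusted p = 0.0052). Over the alternatives, the change kept its direction and passed in 4 of 10 for IGFBP1, 9 of 10 for Bco2 and 10 of 10 for the other 7 genes.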

How the results depend on the processing

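Every gene called in the comparison of 6 tanks and tested in an alternative kept its direction there. The alternatives reuse the same tanks, so this was largely fixed beforehand and says little about the counts. The count of called genes, 3042, became 6420 with all 13 groups in 1 fit, 1531 with no filter on low values and 2 without pool B5 R1, an alternative that, like leaving out pool B5 R3, was chosen after seeing the data. Leaving out 1 tank at a time gave 2 to 3449 calls, the fewest without B10, where 4787 genes had an unadjusted p under 0.05 (3022 without pool B5 R1). Called list members numbered 470, against 280 with no filter, 2 without pool B5 R1 and 2 to 544 with a tank left out. Of the named genes 190 were called, and 2 without pool B5 R1 or, over the tanks left out, 2 to 185. Those no longer called numbered 26 with standard length as a covariate, 40 with no filter and 12 without pool B5 R3, where 5 others were newly called. The change of the diet difference from BW2 to BW3, called in 3962 genes, fell to 1802 without the 3 BW2 pools whose titles are spaced differently. That setting kept the spaced pools of tank B5 at BW3. With a tank left out the count ranged from 1859 to 3312. The cause of these shifts was not tested. No paired analysis was possible because each tank received a single diet and tank numbers do not pair across diets. TPM without read counts limits the precision that can be stated for low genes.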

Other observations

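Gene families picked by name were counted after their values were seen, so their counts are descriptions beside the 5.24% and 11.8% of all genes called higher and lower. Some of their members, such as GARS, are also on the lists above, so the family counts partly repeat the list counts. Of 35 aminoacyl-tRNA synthetases tested, which charge tRNAs with amino acids, 20 were lower in plankton and 0 higher (median difference -0.75 on the log2 scale), and the threonine enzyme TARS read 15.3, 6.13 and 6.10 TPM in plankton tanks B5, B7 and B9 and 22.6, 54.1 and 37.6 TPM in control tanks B6, B8 and B10. Of 75 mitochondrial ribosomal proteins, 30 were lower (median -0.45), whereas of 79 cytosolic ribosomal proteins 3 were (median 0.14). Spliceosome proteins were lower in 18 of 33 and higher in 2, and nucleoporins lower in 9 of 18. Tubulin chains, counted together with the TUBGCP proteins of the gamma-tubulin complex, were lower in 9 of 18. Of 6 protein disulfide isomerases, which fold secreted proteins, 5 were lower (median -1.04). LMNB1, a lamin of the nuclear envelope, read 16.2, 4.40 and 5.48 TPM in plankton and 19.5, 51.6 and 24.6 TPM in control tanks. The histone methyltransferase genes went apart, ezh2 by -1.42 ± 0.29 (adjusted p = 0.0164) and EZH1 by 1.21 ± 0.21 (adjusted p = 0.0111, limma as above).

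Further single genes, also chosen after their values were seen, touch nutrient sensing and hormones. Of the insulin copies named ins, LABE_00075059 read 163, 125 and 66.9 and 190.4, 185 and 169.5 TPM (-0.70 ± 0.28, adjusted p = 0.108), and LABE_00045329 read 2.06, 3.56 and 2.88 and 3.08, 10.8 and 12.7 TPM with overlapping tanks (adjusted p = 0.0416). Genes that restrain and genes that promote the growth kinase complex mTORC1 were both among those called higher. Tsc2, which restrains mTORC1, read 138, 159 and 169 against 91.7, 61.5 and 61.7 TPM (1.09 ± 0.19, adjusted p = 0.0107). RRAGC, a GTPase that promotes its activation by amino acids, differed by 1.11 ± 0.17 (adjusted p = 0.00898), and FLCN, which acts on that GTPase to the same effect, by 1.20 ± 0.20 (adjusted p = 0.0104). The translation repressor eif4ebp3l read 385, 448 and 546 against 235, 157 and 186 TPM (1.24 ± 0.18, adjusted p = 0.00837), and pik3ip1, which inhibits PI3-kinase, 57.5, 65.2 and 59.1 against 23.0, 19.4 and 16.1 TPM (1.57 ± 0.17, adjusted p = 0.00504). PNPLA2, the lipase that opens fat stores, differed by 1.61 ± 0.19 (adjusted p = 0.00656). The vitamin D enzymes were opposed: CYP27B1, which activates the hormone, read 1.81, 0.933 and 0.894 TPM in plankton and 5.35, 7.18 and 5.76 TPM in control tanks (-1.66 ± 0.21, adjusted p = 0.00716), whereas CYP24A1, which inactivates it, was among the genes most raised. KERA, a proteoglycan of the cornea, read 90.4, 111 and 136 TPM in plankton and 47.2, 34.6 and 35.8 TPM in control tanks (1.48 ± 0.20, adjusted p = 0.00716). All of these values share the dependence on pool B5 R1 and tank B10 given for the whole comparison.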
